A study of Mus musculus with 24 samples.

Results

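The 10 genes described here encode chaperones and quality-control proteins of the endoplasmic reticulum (ER), with the transcription factor XBP1 that induces many of them. They were chosen by name: Hspa5, Hsp90b1, Hyou1, Dnajb9, Sdf2l1, Pdia4, Creld2, Herpud1, Manf and Xbp1. Every gene probe on the array that carried one of these names was taken, which gave 20 of 56605 probes. All 20 were well above background on all 24 arrays, and the 10 genes were among 21331 genes tested.

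Proteins bound for secretion fold in the ER with the help of chaperones and disulfide isomerases, and the hepatocyte secretes plasma proteins in bulk. When unfolded proteins build up, the sensors IRE1α, ATF6 and PERK start the unfolded protein response. IRE1α splices the Xbp1 mRNA, the spliced XBP1 and cleaved ATF6 induce chaperone and degradation genes, and PERK slows translation and raises ATF4 and its targets.

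Livers came from 24 male C57Bl/6J mice in 4 groups of 6, with 1 single-colour array per mouse. The series title sets mice with PPARα in hepatocytes, read here as LWT, beside mice without it, read as LKO. PPARα is a nuclear receptor for fatty acids. Which Cre line or deleted exon made the LKO mice is not given in the sources used here. CL316243 activates beta3 adrenergic receptors. Mice received 3 mg/kg of it or its vehicle, 0.5% carboxymethyl cellulose. Both were given by gavage at Zeitgeber time 10 h, counted from lights on, and livers were taken at 16 h. All groups had free access to standard chow and shared the housing. The question asked here is how the 10 genes responded to CL316243 in each genotype and whether the genotypes differed.

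Both probes of Ppara, which encodes PPARα, were lower in every LKO mouse than in every LWT mouse. Under vehicle the brighter one had a log2 level of 5.46 to 5.93 in LWT and 4.81 to 5.18 in LKO. Under CL316243 it was 5.70 to 6.42 in LWT and 3.06 to 4.85 in LKO. Whether these probes lie in the deleted part was not tested. The hepatocyte markers were high in all groups, with a summed log2 level of 11.2 to 11.6 over 8 genes. Between 26985 and 34202 probes per array were well above background. The arrays lay on 3 slides, each with 2 mice of every group.

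Levels below are log2 intensities relative to the 75th percentile of the array, from the brightest probe of a gene, and are compared only within a gene. Differences are log2 differences from a limma fit over all genes, with a standard error (SE) and Benjamini-Hochberg adjusted p. A gene is called higher or lower where that adjusted p is under 0.05. In whole liver, a lower level in each cell and fewer cells of a type cannot be told apart.

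Promoter sequence of 4 members is shown because it holds motifs known from this response, among them the ER stress response elements. RefSeq's table (GRCm38.p6, 250 bases before to 50 after each gene start) held promoters for 8 of the 10 genes, not for Manf and Hyou1. A set of 3 motifs was searched on both strands of the 300 bases. The ER stress response element, ERSE (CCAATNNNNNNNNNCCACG), was present in Hspa5, Hsp90b1 and Creld2 and in 0.119% of all 32851 promoters. ERSE-II (ATTGGNCCACG) was present in Herpud1 and in 0.037% of all promoters. The core TGACGTG, found in elements bound by XBP1 and ATF6, was present in Hspa5 and in 2.01% of all promoters. Among 65 other ER genes with a promoter in the table, ERSE was present in 6 (Calr, Canx, Derl3, Dnajc3, Pdia6 and Syvn1), ERSE-II in 1 (Dnajb11) and the core in 7. None of the 3 motifs occurred in the windows of Xbp1, Dnajb9, Pdia4 or Sdf2l1. No matches overlapped each other. The lines below run 5′ to 3′ along the gene's own strand, with matches in capitals. They come from chr2:34771903-34772073 (+), chr10:86705503-86705686 (-), chr15:88819490-88819568 (+) and chr8:94386347-94386417 (+), and all end before the annotated gene start.
Hspa5: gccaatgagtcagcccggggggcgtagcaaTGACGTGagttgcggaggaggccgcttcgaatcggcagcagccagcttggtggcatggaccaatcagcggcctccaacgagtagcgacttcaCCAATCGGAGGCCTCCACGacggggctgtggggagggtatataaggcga
Hsp90b1: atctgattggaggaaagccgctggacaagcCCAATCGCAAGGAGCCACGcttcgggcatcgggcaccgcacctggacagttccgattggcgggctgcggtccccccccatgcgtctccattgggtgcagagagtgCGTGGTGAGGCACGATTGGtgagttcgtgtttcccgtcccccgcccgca
Creld2: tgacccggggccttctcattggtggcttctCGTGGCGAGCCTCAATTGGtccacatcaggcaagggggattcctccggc
Herpud1: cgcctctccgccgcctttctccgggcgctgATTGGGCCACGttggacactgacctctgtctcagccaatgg

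Hspa5 holds the TGACGTG core 157 bases and an ERSE 65 bases before its start. Hsp90b1 holds an ERSE on each strand, 212 and 107 bases before the start. Creld2 holds its ERSE on the opposite strand, 126 bases before the start, and Herpud1 its ERSE-II 52 bases before the start. A match in these letters is a description of the sequence and was not tested as a binding site.

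In LWT liver CL316243 moved 3 of the 10 genes, in both directions. The co-chaperone Dnajb9 rose 2.21-fold, while Sdf2l1, a partner of such co-chaperones, fell 2.07-fold and the disulfide isomerase Pdia4 fell 1.60-fold. The principal chaperones Hspa5 and Hsp90b1 were not called. Over all genes tested, 38.3% were called in this comparison, 18.9% higher and 19.4% lower, so 3 of 10 is not above the background. The median log2 difference of the 10 was -0.10, against 0.01 for all genes.

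Dnajb9 encodes ERdj4, a DnaJ partner of the chaperone BiP and a known XBP1 target. Its level in LWT was 2.04, 2.46 and 2.92 (lowest, median and highest mouse) under vehicle and 3.09, 3.56 and 4.26 under CL316243. The 2 groups did not overlap, and the difference was 1.14 (SE 0.22, adjusted p = 0.000343). Such a lack of overlap was seen in 20.4% of all genes, and among the 10 in Dnajb9 alone.

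Sdf2l1 encodes an ER protein that works with ERdj3 and BiP. In LWT its level was 1.998, 2.36 and 3.36 under vehicle and 0.56, 1.39 and 2.59 under CL316243. Of the 6 treated mice, 5 lay below every vehicle mouse, and replicate 3 lay among them. The difference was -1.05 (SE 0.31, adjusted p = 0.00968). Pdia4 encodes ERp72, which forms and rearranges disulfide bonds. Its level fell from 1.98, 2.28 and 2.84 under vehicle to 1.42, 1.57 and 2.13 under CL316243. Again 5 of the 6 treated mice lay below every vehicle mouse and replicate 3 did not. The difference was -0.68 (SE 0.17, adjusted p = 0.00293).

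The other 7 genes did not pass the test in LWT. Hyou1, a large HSP70-like chaperone and exchange factor for BiP, had a difference of -0.54 (SE 0.22, adjusted p = 0.0615). Xbp1 had 0.38 (SE 0.18, adjusted p = 0.0987). Herpud1, which helps clear misfolded proteins through ER-associated degradation, had 0.34 (SE 0.16, adjusted p = 0.0996). Creld2, an ER-stress-inducible protein with isomerase activity, had 0.33, with the widest interval of the 10, -0.43 to 1.08. Manf, an ER-resident factor that can be secreted, had -0.29. Hsp90b1, which encodes the HSP90 paralogue GRP94, had -0.16 and Hspa5, which encodes BiP, had -0.03, with a 95% interval of -0.48 to 0.42. Within slides 1, 2 and 3 the median of the 10 was -0.32, -0.05 and 0.07. Leaving out LWT CL316243 replicate 4 raised the count called from 3 to 5, with Xbp1 (adjusted p = 0.0360) and Herpud1 (0.0381) then called higher. Herpud1 was also called without LWT vehicle replicate 3 or CL316243 replicate 6 (adjusted p = 0.0364 and 0.0474), and Hyou1 without CL316243 replicate 2 or 3 (0.0425 and 0.0148).

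**Figure D1:**
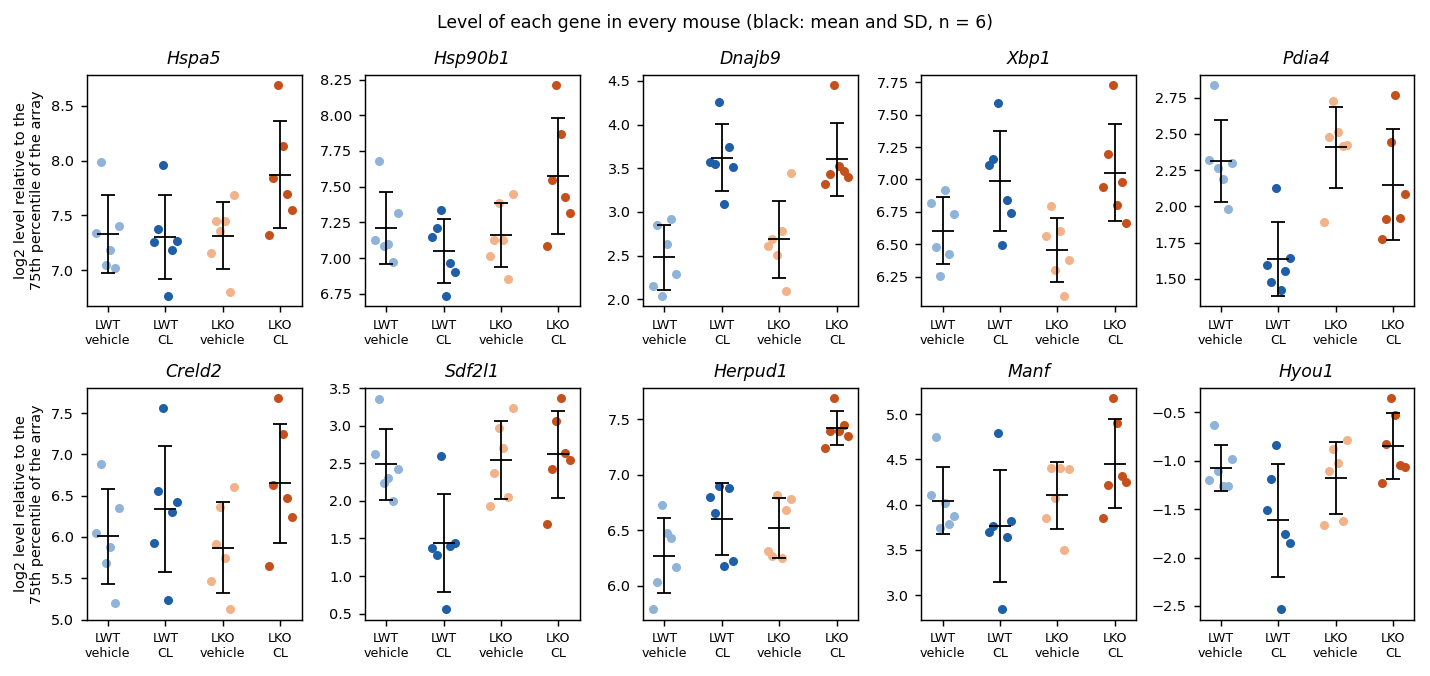
Log2 level relative to the array's 75th percentile (vertical axes, which differ between panels) of each of the 10 genes in every mouse, by group, with the mean and SD of 6 mice in black. Herpud1 in LKO mice given CL316243 lay at 7.24 to 7.69, above every mouse of the other 3 groups, and Dnajb9 was high under CL316243 in both genotypes.

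In LKO liver CL316243 raised 5 of the 10 genes and lowered none. Herpud1 rose 1.87-fold and Dnajb9 1.88-fold, followed by Xbp1 (1.51-fold), Hspa5 (1.47-fold) and Hsp90b1 (1.33-fold). The background was high here too, with 40.3% of all genes called, 20.9% higher and 19.4% lower. The median difference of the 10 was 0.49, against 0.03 for all genes. Of the 10, 9 had a difference above 0, and Pdia4 did not.

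Herpud1 had levels of 6.25, 6.497 and 6.82 in LKO mice under vehicle and 7.24, 7.40 and 7.69 under CL316243. The groups did not overlap, which was so for 20.8% of all genes and for no other member. The difference was 0.90 (SE 0.16, adjusted p = 0.000108). Dnajb9 had levels of 2.10, 2.65 and 3.45 under vehicle and 3.32, 3.45 and 4.45 under CL316243. The highest vehicle mouse lay within the range of the treated mice, whose highest was replicate 3. The difference was 0.91 (SE 0.22, adjusted p = 0.00257). Dnajb9 was the 1 member called for CL316243 in both genotypes.

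Xbp1 had levels of 6.10, 6.47 and 6.80 in LKO mice under vehicle and 6.67, 6.96 and 7.73 under CL316243. The ranges overlapped, and all 6 treated mice lay above the vehicle mean. The difference was 0.59 (SE 0.18, adjusted p = 0.0112). With the mean of its 3 probes in place of the brightest it was 0.50 (adjusted p = 0.0554). The probes report the Xbp1 transcript as a whole, and its spliced form was not analysed here.

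Hspa5 encodes BiP, the HSP70 chaperone that also holds the sensors inactive. Its level in LKO mice was 6.80, 7.40 and 7.69 under vehicle and 7.32, 7.77 and 8.69 under CL316243, with overlap between the groups. The difference was 0.56 (SE 0.22, adjusted p = 0.0442). Hsp90b1 went from 6.85, 7.13 and 7.45 to 7.09, 7.49 and 8.21, also with overlap. The difference was 0.42 (SE 0.16, adjusted p = 0.0430). In both genes the highest treated mouse was replicate 3, and without it the adjusted p was 0.132 for Hspa5 and 0.129 for Hsp90b1. Both calls lay close to the threshold. Hspa5 was not called in 7 of 9 alternative analyses, slide as a block among them (adjusted p = 0.0509), nor with any 1 of 13 mice left out, at adjusted p up to 0.132. These were LWT vehicle replicate 1 or 6, LWT CL316243 replicate 2, 5 or 6, LKO vehicle replicate 1, 2, 3, 4 or 5 and LKO CL316243 replicate 2, 3 or 4. For Hsp90b1 the counts were 5 of 9 alternatives and 7 mice, those listed with the counts below.

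The other 5 genes were not called in LKO. Creld2 had a difference of 0.78 (SE 0.36, adjusted p = 0.0913) and was called without LKO CL316243 replicate 1, at 0.98 (adjusted p = 0.0356). Manf had 0.34, Hyou1 0.34, Sdf2l1 0.08 and Pdia4 -0.26. The Hyou1 value was 0.57 with the mean of its probes. With the values of the series table it was 0.049, where the brightest probe was chosen anew and may be another. For Sdf2l1 the interval ran from -0.56 to 0.72, and its levels of 1.93, 2.54 and 3.24 under vehicle and 1.69, 2.59 and 3.36 under CL316243 covered each other. Within slides 1, 2 and 3 the median of the 10 was 0.56, 0.13 and 0.66. The count called was 3 in place of 5 without LKO vehicle replicate 1, 2, 4 or 5 or without LKO CL316243 replicate 2, 3 or 4. In each of these the calls lost were those of Hspa5 and Hsp90b1.

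**Figure D2:**
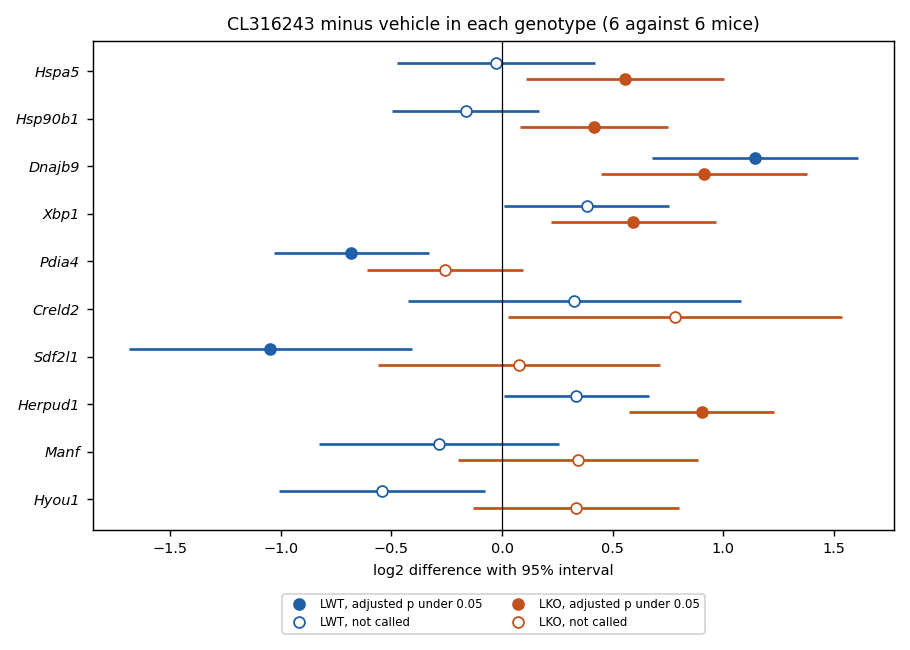
Log2 difference between CL316243 and vehicle (horizontal axis) with its 95% interval for each gene, in LWT in blue and LKO in orange, 6 mice against 6. Filled points passed an adjusted p of 0.05, and 9 of the 10 genes lay further right in LKO than in LWT, Dnajb9 being the exception.

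By the brightest probe, the response to CL316243 was more positive in LKO than in LWT for 9 of the 10 genes. No single gene passed the test of that difference. The interaction, the LKO response minus the LWT response, had a median of 0.57 over the 10 against 0.03 for all genes. None of the 10 was called, with 5.41% of all genes called. At an unadjusted p under 0.05 were 4, and the share of all genes at that threshold was not counted. These 4 were Sdf2l1 with 1.12 (SE 0.44, adjusted p = 0.153), Hyou1 with 0.88 (SE 0.32, adjusted p = 0.121), Hsp90b1 with 0.58 (SE 0.23, adjusted p = 0.158) and Herpud1 with 0.57 (SE 0.22, adjusted p = 0.160). With the values of the series table, its brightest probe chosen anew, the Hyou1 interaction was 0.43 (adjusted p = 0.461). Dnajb9 had -0.23, with an interval of -0.89 to 0.43. Xbp1 had 0.21, and -0.012 with the mean of its probes. The median within slides was 0.94, 0.14 and 0.65. Without LWT CL316243 replicate 3, Sdf2l1 (1.35, adjusted p = 0.0460) and Hyou1 (1.03, adjusted p = 0.0414) were called.

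Under vehicle no difference between the genotypes was detected in the 10 genes. None was called by limma, with 1.18% of all genes called, and none had an unadjusted p under 0.05. The differences, LKO minus LWT, ran from -0.15 in Xbp1 to 0.25 in Herpud1, with a median of 0.02. Within slides 1, 2 and 3 the median was 0.33, -0.35 and -0.016, with 9, 3 and 5 of the 10 higher in LKO. No member's groups were without overlap, against 1.80% of all genes. The intervals were wide in places, from -0.89 to 0.61 for Creld2 and from -0.58 to 0.70 for Sdf2l1. With 6 mice a group, differences within those intervals remain possible.

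Under CL316243 the LKO livers had the higher levels of 5 of the 10 genes, and of none the lower. These were Sdf2l1 (2.27-fold), Herpud1 (1.76-fold), Hyou1 (1.71-fold), Hsp90b1 (1.44-fold) and Pdia4 (1.43-fold). Over all genes 15.9% were called, 7.74% higher and 8.17% lower. The median of the 10 was 0.55 against 0.01 for all genes. An unadjusted p under 0.05 was found in 7, with the share of all genes not counted. In those 7 all 6 LKO mice lay above the LWT mean. This comparison shares its mice with the treatment comparisons above.

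Herpud1 was 6.18, 6.73 and 6.90 in LWT mice and 7.24, 7.40 and 7.69 in LKO mice under CL316243. Every LKO mouse lay above every LWT mouse, as in 6.57% of all genes and in no other member. The difference was 0.82 (SE 0.16, adjusted p = 0.000744), and it kept its call in all 9 alternatives and without any 1 mouse. Sdf2l1 was 0.56, 1.39 and 2.59 in LWT mice and 1.69, 2.59 and 3.36 in LKO mice. The groups overlapped through LWT replicate 3, the next highest LWT mouse lying at 1.44. The difference was 1.18 (SE 0.31, adjusted p = 0.00986), and its call was kept in the same settings.

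Hyou1 was -2.53, -1.63 and -0.84 in LWT mice and -1.23, -0.94 and -0.36 in LKO mice, with overlap. The difference was 0.77 (SE 0.22, adjusted p = 0.0203), and without LWT replicate 4, the lowest, it was 0.59 (adjusted p = 0.0521). With the values of the series table, its brightest probe chosen anew, the Hyou1 call was also lost, at 0.56 (adjusted p = 0.0622). The same held with only the 2 groups fitted (adjusted p = 0.0800). Hsp90b1 was 6.74, 7.06 and 7.33 against 7.09, 7.49 and 8.21. The difference was 0.53 (SE 0.16, adjusted p = 0.0267). Pdia4 was 1.42, 1.57 and 2.13 against 1.77, 2.004 and 2.77, and all 6 LKO mice lay above the LWT mean. The difference was 0.52 (SE 0.17, adjusted p = 0.0411). The Pdia4 call was lost without any 1 of 8 mice, LWT replicate 1, 2, 4, 5 or 6 or LKO replicate 3, 4 or 6, at an adjusted p of up to 0.105. That of Hsp90b1 was lost without LWT replicate 4, 5 or 6 or LKO replicate 3 or 4, at an adjusted p of up to 0.0643. With slide as a block the adjusted p was 0.0557 for Pdia4, which was then not called, and 0.0333 for Hsp90b1. Neither was called without the filter on dim probes (0.0849 and 0.0581) or with only the 2 groups fitted (0.0915 and 0.0863).

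Manf, with 0.69 (SE 0.26, adjusted p = 0.0783), and Hspa5, with 0.57 (SE 0.22, adjusted p = 0.0790), missed the threshold. Without LWT replicate 3 they were called, at 0.90 (adjusted p = 0.0121) and 0.70 (adjusted p = 0.0261), and likewise without LKO replicate 1, at 0.81 (adjusted p = 0.0445) and 0.68 (adjusted p = 0.0387). Creld2 had 0.31, Xbp1 0.06 and Dnajb9 -0.02. For Xbp1 the interval was -0.31 to 0.44 and for Dnajb9 -0.49 to 0.44.

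The difference between genotypes under CL316243 was uneven over the slides. The median of the 10 was 1.29 on slide 1, where all 10 were higher in LKO, and 0.72 on slide 3, where 8 were. On slide 2 it was -0.18, and 3 of 10 were higher. Slide 2 held LWT replicate 3, whose members were high for its group, and LKO replicate 1, whose members were low. The slide 2 median was also the lowest under vehicle, without these mice, and the cause was not tested. Under CL316243, Sdf2l1, Herpud1 and Pdia4 were the 3 with a positive difference on every slide. The count of 5 fell to 2 without LWT CL316243 replicate 4 and to 3 without LWT replicate 5 or 6 or LKO replicate 3 or 4. It reached 7 without LWT replicate 3 or LKO replicate 1.

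**Figure D3:**
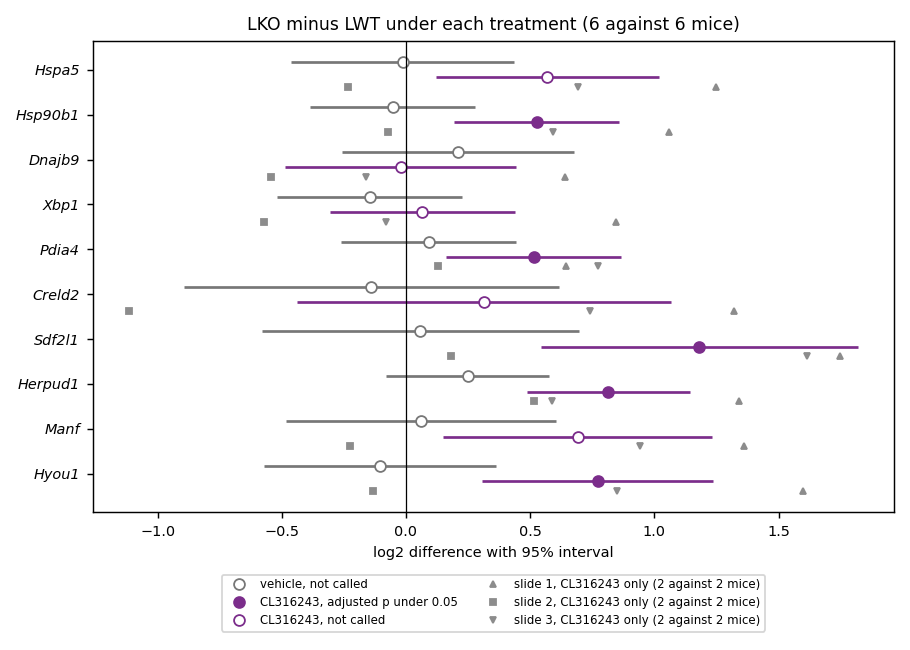
Log2 difference between LKO and LWT (horizontal axis) with its 95% interval for each gene, under vehicle in grey and CL316243 in purple, 6 mice against 6, with filled points for an adjusted p under 0.05. Small grey marks give the CL316243 difference within each slide (2 mice against 2), and the squares of slide 2 lie left of those of the other slides in all 10 genes.

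Mice of a group differed together in these genes. After subtracting group means, all 45 pairs of the 10 genes had a positive Pearson correlation over the 24 arrays. The median was 0.71, from 0.12 to 0.94 (Spearman median 0.64). The points share arrays, each scaled by its own 75th percentile, and no matching value was computed for pairs of other genes. Hspa5 was closest to Creld2 and to Manf, at 0.94 each. Herpud1 moved least with the rest, with a median correlation of 0.25, and was correlated most with Hyou1. Without the 2 mice farthest from the median, replicate 3 of each CL316243 group, the median was 0.62 and 41 of 45 pairs stayed positive.

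The mean of the 10 genes, relative to the LWT vehicle mean, gave the spread of each group. It ran from -0.22 to 0.45 in LWT vehicle and from -0.37 to 0.39 in LKO vehicle. Under CL316243 it ran from -0.69 to 0.66 in LWT and from -0.0040 to 1.11 in LKO. The LWT treated mice thus spanned the widest range, from replicate 4 to replicate 3, and the groups overlapped. LKO replicate 3 was the highest of all 24 mice, with all 10 genes above the LWT vehicle mean.

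**Figure D4:**
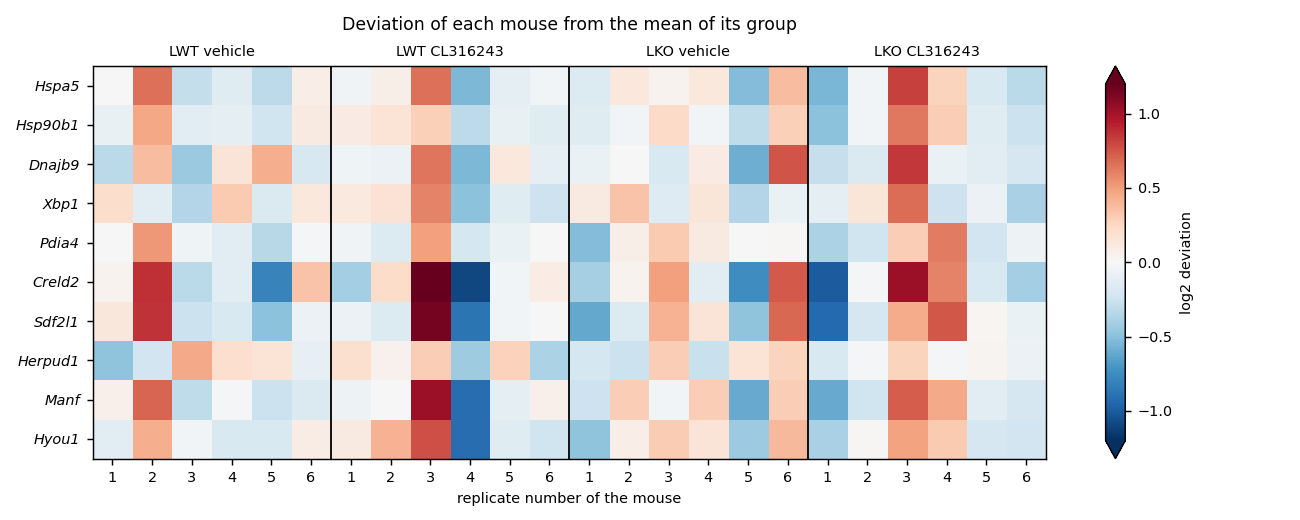
Deviation of each mouse (columns, by replicate number within group) from the mean of its group for the 10 genes (rows), in log2 units on a colour scale that ends at 1.2 in each direction. Columns tend to share 1 colour, as in replicate 3 of both CL316243 groups (red) and LWT CL316243 replicate 4 (blue), and the Herpud1 row follows them least.

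Outside the 10, the genes whose levels followed their mean most closely over the 24 arrays, after subtracting group means, were Dnajb11 (r = 0.96), Syvn1 (0.93), Wars (0.93), Pde12 (0.89) and Tspyl2 (0.89). Dnajb11 encodes the BiP co-chaperone ERdj3 and Syvn1 the ubiquitin ligase HRD1 of ER-associated degradation. Wars encodes the tryptophanyl-tRNA synthetase. Without subtracting group means the closest were Syvn1, Dnajb11, Tmed9, Wars and Gfpt1. The correlation with Dnajb11 was 0.95 without the 2 most extreme arrays.

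Genes with several probes gave mostly like results. Of the 20 probes, 5 were called for CL316243 in LWT, where 37.6% of all probes were. In LKO 8 were called, against 41.0% of all probes, and between genotypes under CL316243 8 were, against 15.4%. Both Dnajb9 probes rose in both genotypes, and both Herpud1 probes rose in LKO (0.90 and 0.78) and were higher in LKO than in LWT under CL316243 (0.82 and 0.85). The 3 Hspa5 probes gave 0.56, 0.57 and 0.59 for CL316243 in LKO, with 1 of them called. For Xbp1 the probe at chr11:5424869-5424928 (mm9) was called in LWT, with 0.65 (adjusted p = 0.0335), though the brightest, at chr11:5425816-5425875, was not. In LKO only the brightest Xbp1 probe was called. The interaction of Xbp1 was 0.21 by the brightest probe and -0.22 and -0.025 by the others. Its differences between genotypes, none of them called, also differed in sign between probes.

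The Hyou1 probes disagreed in direction for CL316243 in LWT. The brightest, at chr9:44199084-44199143 (mm9), and 2 others had differences of -0.54, -0.40 and -0.46 for CL316243 in LWT. The fourth, at chr9:44193855-44193914, which the array assigns to a separate Ensembl transcript, had 0.79 in LWT (adjusted p = 0.151) and 1.51 in LKO (adjusted p = 0.00660). All 4 were higher in LKO than in LWT under CL316243, by 0.68 to 1.34, and 3 of them were called. With the mean of the 4 probes, the LWT difference of Hyou1 was -0.15.

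Other genes of the ER response were counted from a list of 81, of which 79 were tested. CL316243 called 31 of them in LWT, 14 higher and 17 lower, where 38.3% of all genes were called. In LKO it called 36, 30 higher and 6 lower, where 40.3% of all genes were called, 20.9% higher and 19.4% lower. Both totals lie near the background. Their median was -0.02 in LWT and 0.16 in LKO. Between genotypes, 0 of 79 were called by limma under vehicle, where 1.18% of all genes were. At an unadjusted p under 0.05 were 6. No share of all genes was counted at that threshold, here or for the lists below. Under CL316243, 29 were called, 28 higher in LKO and 1 lower, with a median of 0.20, where 15.9% of all genes were called, 7.74% higher and 8.17% lower. For the interaction 7 were called, 6 higher and 1 lower, where 5.41% of all genes were called. The same shares over all genes stand behind the shorter lists that follow, which hold 8 to 18 genes each.

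Among sensors and transducers, 8 of 10 were called in LWT, 6 higher and 2 lower. Ern1, which encodes IRE1α, fell by 1.41 in LWT (SE 0.25, adjusted p = 0.000114) and had -0.57 in LKO (adjusted p = 0.0729). Eif2ak3, which encodes PERK, rose by 0.57 in LWT (adjusted p = 0.0146) and by 1.45 in LKO (adjusted p = 2.34e-06). Its interaction was 0.88 (SE 0.25, adjusted p = 0.0417). Creb3l3, which encodes the liver transcription factor CREBH, went the other way. It rose by 0.89 in LWT (adjusted p = 1.56e-05) and had 0.17 in LKO. Under CL316243 it was 1.21 lower in LKO than in LWT on the log2 scale, the 1 lower call of the 79. Its interaction was -0.72 (SE 0.19, adjusted p = 0.0239), smaller in size than that difference. Part of the fitted difference was thus present under vehicle, where it was not called.

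The list called the PERK arm was set by name, and PERK activity was not measured. Of its 8 genes, 2 rose in LWT, Chac1 by 2.43 and Atf3 by 1.73. In LKO 7 rose, Chac1 by 3.94 (SE 0.60, adjusted p = 2.50e-05) and Atf3 by 2.86 (SE 0.57, adjusted p = 0.000416). Chac1 degrades glutathione and Atf3 is a stress-induced transcription factor. None of the 8 was called for the interaction by limma, and 2 had an unadjusted p under 0.05. Under CL316243, 4 of the 8 were higher in LKO.

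Of 18 folding and disulfide genes, 6 fell and 1 rose in LWT, and 1 fell and 5 rose in LKO. The lectin chaperone Calr fell by 0.28 in LWT (adjusted p = 0.00500) and rose by 0.27 in LKO (adjusted p = 0.00720). Its interaction was 0.55 (SE 0.11, adjusted p = 0.00263). Dnajc10, a disulfide reductase, fell by 0.49 in LWT and had 0.16 in LKO, with an interaction of 0.64 (SE 0.15, adjusted p = 0.00972). Ero1lb, an oxidase that supplies disulfides, had -0.29 and 0.30, with an interaction of 0.58 (adjusted p = 0.0441). Under CL316243, 10 of 18 were higher in LKO.

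Among degradation genes, Derl3 fell by 1.97 (SE 0.62, adjusted p = 0.0153) and Derl2 by 0.68 in LWT, both parts of the channel complex for misfolded proteins. Derl2 had an interaction of 0.53 (SE 0.14, adjusted p = 0.0266). Syvn1 had 0.27 in LWT and rose by 1.09 in LKO (adjusted p = 0.00237). Of the 14, 6 were higher in LKO under CL316243. Of 18 translocon, signal peptidase and glycosylation genes 5 were, and among these Sec61a1, the channel subunit, had an interaction of 0.36 (adjusted p = 0.0238). Of 11 genes of transport between ER and Golgi none was called between genotypes under CL316243 by limma, with 1 at an unadjusted p under 0.05. For CL316243 itself 5 of the 11 were called in LWT, 3 higher and 2 lower, and 6 in LKO, 4 higher and 2 lower. Sec24d, a coat protein, rose by 0.85 in LWT and 0.55 in LKO. Kdelr1 fell by 0.34 in LWT and 0.61 in LKO, and Lman1 fell by 0.27 and 0.28.

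**Figure D5:**
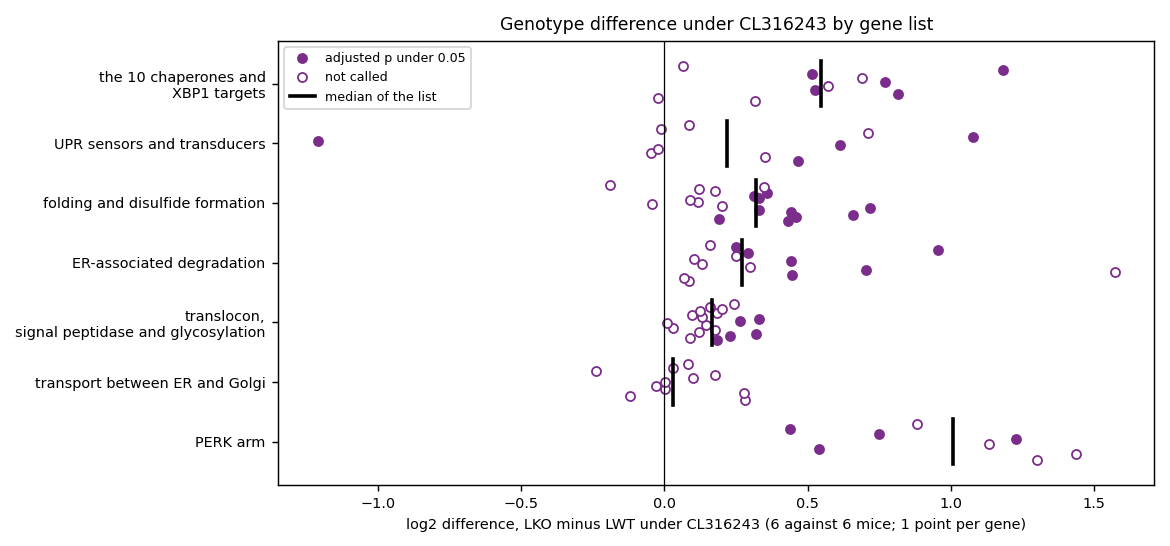
Log2 difference between LKO and LWT under CL316243 (horizontal axis), with 1 point per gene, for the 10 genes and 6 lists of other ER genes, filled where the adjusted p was under 0.05, and black bars at each median. The medians were 0.55 for the 10 genes, 1.01 for the PERK arm and 0.03 for transport between ER and Golgi.

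Some markers of other cells were called for CL316243 too. Over all genes 38.3% were called in LWT, 18.9% higher and 19.4% lower. In LKO 40.3% were, 20.9% higher and 19.4% lower. The counts of markers were not tested against these shares. The summed log2 level of 6 neutrophil markers lay between 1.495 and 2.58 under vehicle and between 1.58 and 3.76 under CL316243 in LWT. In LKO it lay between 1.504 and 2.03 and between 2.14 and 5.49. S100a8 and S100a9 rose in both genotypes (1.48 and 1.44 in LWT, 2.30 and 2.25 in LKO), with Elane and Cxcr2 also in LKO, while Ly6g fell by 0.38 in LWT (adjusted p = 0.0342) and had -0.28 in LKO. Of 6 endothelial markers 2 rose and 1 fell in LWT, and 1 rose and 1 fell in LKO, where Lyve1 rose by 2.39. Of 6 stellate cell markers 1 rose and 2 fell in LWT, Ngfr by 1.21 and Lrat by 0.71, and 1 rose and 1 fell in LKO. Their summed level was 5.11 to 5.60 (endothelial) and 5.42 to 6.22 (stellate) over all mice. Of 8 Kupffer cell markers 0 were called by limma in either genotype, with 0 at an unadjusted p under 0.05. Of 6 cholangiocyte markers 1 rose in LWT and 2 in LKO. Plasma and B cell markers fell, 4 of 6 tested in LWT and 2 of 6 in LKO, and Cd79a and Tnfrsf17 were well above background on 0 arrays. Their summed level was 0.47 to 1.01 under vehicle and -0.23 to 0.43 under CL316243 in LWT, and 0.06 to 0.60 and -0.55 to 0.54 in LKO. Between genotypes under CL316243, where 15.9% of all genes were called, 1 of 6 neutrophil markers was higher in LKO. By limma, 0 of 6 plasma and B cell and 0 of 8 hepatocyte markers were called, with 0 and 1 at an unadjusted p under 0.05. The other 4 lists had 0 calls, with 0 (Kupffer), 0 (endothelial), 1 (stellate) and 1 (cholangiocyte) at an unadjusted p under 0.05. The part of other cells in the levels of the 10 genes was not tested.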

How the data were processed

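One array per mouse was analysed, 24 in all. The deposited scanner tables held spot intensities, background-subtracted in the processed column. The submitters' processing notes name Agilent Feature Extraction 10.10.1.1. The deposited series table held log2 values, and 99.3% of them lay within 0.01 of the quantile-normalized log2 median signal. It served as an alternative.

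Processed intensities of 59305 non-control spots per array were put on the log2 scale, outlier spots were removed, spots of a probe averaged and the 75th percentile of the array subtracted. It ran from 397.4 to 577.7. Kept were 32037 of 56605 probes, those well above background on 4 or more of the 6 arrays in any group. The brightest kept probe stood for a gene. Groups were fitted with limma 3.58.1 in R 4.3.3, 1 mean per group, in 5 comparisons, each adjusted over 21331 genes (Benjamini-Hochberg). The fit was tested on simulated data. The number of arrays limits the precision: the median SE was 0.13 between groups and 0.19 for the interaction. Symbols are those of the array, with positions in mm9.

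All 10 members were named throughout. Of the 81 other ER genes, each list's largest called changes by CL316243 and all called interactions could be named. Of these, Ern2 and Kdelr3 did not pass the filter. Likeness names the 5 genes of highest correlation. The members and lists were chosen with earlier results of these data known. Alternatives were normexp with quantile normalization, the series table, quantile normalization, no filter, the mean of probes, only the 2 groups compared, slide and row blocks, a replicate block and each array left out. Under normexp, the series table, quantile normalization and no filter, the brightest probe was chosen anew. The labels give 6 mice per condition as replicates.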

Additional observations from a re-analysis of the deposited data

Results flagged for a closer look

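Chance alone marks about 1 in 20 groups for a mouse that stands apart, and 40 groups of 6 mice were looked at. Dnajb9 stood apart at 4.45 in LKO CL316243 replicate 3, above the other 5 mice of its group. Pdia4 stood apart at 2.13 in LWT CL316243 replicate 3, above its group. Pdia4 also stood apart at 1.89 in LKO vehicle replicate 1, below its group. Manf stood apart at 4.74 in LWT vehicle replicate 2, above its group. The response to CL316243 differed between genotypes by the limma interaction test in 7 of 79 other ER genes and in 5.41% of all genes. It was higher in LKO by 0.88 for Eif2ak3, 0.64 for Dnajc10, 0.58 for Ero1lb, 0.55 for Calr, 0.53 for Derl2 and 0.36 for Sec61a1 on the log2 scale. For Creb3l3 the difference was -0.72.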

How the results depend on the processing

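Dnajb9 (both genotypes), Herpud1 (LKO, and LKO against LWT under CL316243) and Sdf2l1 and Pdia4 (LWT) kept their calls in every alternative run and without any 1 mouse, as did Sdf2l1 between genotypes under CL316243. The members called in LKO numbered 3 in place of 5 under normexp with quantile normalization, the series table, quantile normalization, no filter on dim probes, the mean of probes and a fit of only the 2 groups, and 3 to 6 with 1 mouse left out. Between genotypes under CL316243, the 5 members became 3 without the filter and 2 with only the 2 groups (2 to 7 with 1 mouse left out), and the 29 other ER genes 18 and 15 (20 to 33). Without the filter, interaction calls fell from 1153 to 664 over all genes and from 7 to 2 over other ER genes (4 to 10 with 1 mouse left out, 4 being without LKO vehicle replicate 4), and vehicle genotype calls from 251 to 167. All calls between genotypes under CL316243 fell from 3393 to 2203 with only the 2 groups. Interaction calls of members were 0 to 2 with 1 mouse left out and LWT member calls 3 to 5. The cause was not tested, except that fewer arrays were fitted with only the 2 groups. Without the filter the median of all genes shifted to 0.11 in LWT and 0.10 in LKO.

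The labels give replicate numbers without saying that they pair mice, so the main fit did not pair them. Of 36 same-numbered pairs, 9 correlated above 0.1. The mean r was 0.057 for same-numbered pairs and -0.011 for others, and 10 of 24 mice correlated best with their own number. The chance level of these values was not computed. A replicate block gave 5 called members in LWT in place of 3, adding Herpud1 (adjusted p = 0.0488) and Hyou1 (0.0375), and 1 other ER gene in place of 0 between genotypes under vehicle (0 to 1 with 1 mouse left out, 1 being without LWT vehicle replicate 3 or LKO CL316243 replicate 3 or 6). It moved no other count of calls by over 1.5 times.

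Values near 0 that were not called changed sign. With the mean of probes the Xbp1 interaction was -0.012, and LKO minus LWT was 0.0080 for Xbp1 and 0.15 for Hyou1 under vehicle and 0.0047 for Dnajb9 and -0.0040 for Xbp1 under CL316243. The series table gave 0.0016 for Hspa5 and 0.13 for Hyou1 under vehicle. With 1 mouse left out, the CL316243 difference ran from -0.16 to 0.10 for Hspa5 in LWT and from -0.072 to 0.26 for Sdf2l1 in LKO. LKO minus LWT under vehicle ran from -0.088 to 0.12 for Hspa5, -0.11 to 0.040 for Hsp90b1, -0.30 to 0.036 for Creld2, -0.081 to 0.23 for Sdf2l1 and -0.00054 to 0.20 for Manf. Under CL316243 it ran from -0.19 to 0.11 for Dnajb9 and -0.070 to 0.18 for Xbp1.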
